A study of Mus musculus with 3 samples.

Results

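A set of 9 genes of mouse kidney metabolism was followed across nephritis and its treatment: Gatm and Gamt, which make creatine; Hpd, Hgd and Fah, which break down tyrosine; Dao, Prodh and Agxt2, which act on other amino acids; and Miox, which opens the ring of myo-inositol. They were chosen by gene symbol, with earlier results of these arrays known, and all 9 of 9 were found among 19938 genes with a probe set of their own, each read by 1 probe set. Total RNA of kidney from female CBL/6 mice of 8 to 10 weeks had been labelled from 250 ng and put on Affymetrix Mouse Gene 1.0 ST arrays, with 1 array for each of 3 groups. One group had been given sheep nephrotoxic serum (NTS), an antiserum against the glomerulus that starts an immune nephritis, in a single dose of 13.5 ug per g body weight, and prostaglandin E2 (PGE2), a lipid signal, in daily doses of 5 ug per g that began on day 2. A second group had been given NTS at the same dose without PGE2, and the third was the non-treated control. The treated mice were killed on day 7, and the labels do not say when the control kidneys were taken or whether an array held RNA of 1 animal or of several. No spread between animals could be measured with a single array in each group, so no test was made and no p-value is given.

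Creatine is made in 2 steps that lie mostly in different organs. In the proximal tubule of the kidney, the mitochondrial enzyme encoded by Gatm (arginine:glycine amidinotransferase) joins the amidino group of arginine to glycine, and the guanidinoacetate so formed travels to the liver, where the methyltransferase encoded by Gamt turns it into creatine. The proximal tubule also degrades amino acids and inositol that it has reabsorbed from the filtrate, and like the liver it holds the tyrosine pathway, in which Hpd makes homogentisate, Hgd opens its ring and Fah splits the last intermediate into fumarate and acetoacetate. In humans, loss of HGD causes alkaptonuria and loss of FAH causes tyrosinemia.

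The stretches of DNA in front of 5 of the genes are shown because the genes they serve include the 3 with the largest NTS minus control differences (Hpd, Gatm and Miox), 1 of middling difference (Agxt2) and 1 that stayed under 2-fold (Fah). Each is the 250 bases before the annotated transcription start (RefSeq, build GRCm38.p6), read 5′ to 3′ on the strand of the gene. Their places are chr5:123182724-123182973 on the minus strand for Hpd, chr2:122611278-122611527 on the minus strand for Gatm, chr15:89334223-89334472 on the plus strand for Miox, chr15:10358283-10358532 on the plus strand for the first of 2 starts of Agxt2, and chr7:84605943-84606192 on the minus strand for Fah. Capitals mark matches, on either strand, to the letters CAAAGTCCA (a site of HNF4) or AGGTCA (the hexamer that nuclear receptors bind), and a sequence with no capitals held neither of them.
Hpd: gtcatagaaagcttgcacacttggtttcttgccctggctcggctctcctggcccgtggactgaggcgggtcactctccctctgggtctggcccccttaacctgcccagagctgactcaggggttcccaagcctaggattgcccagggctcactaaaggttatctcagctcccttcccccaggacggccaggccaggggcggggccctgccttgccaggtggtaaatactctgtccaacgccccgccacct
Gatm: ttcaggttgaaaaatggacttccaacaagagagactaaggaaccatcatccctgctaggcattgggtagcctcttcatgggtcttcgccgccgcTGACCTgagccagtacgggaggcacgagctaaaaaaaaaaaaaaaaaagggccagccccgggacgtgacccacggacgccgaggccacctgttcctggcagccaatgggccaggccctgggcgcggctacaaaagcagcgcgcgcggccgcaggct
Miox: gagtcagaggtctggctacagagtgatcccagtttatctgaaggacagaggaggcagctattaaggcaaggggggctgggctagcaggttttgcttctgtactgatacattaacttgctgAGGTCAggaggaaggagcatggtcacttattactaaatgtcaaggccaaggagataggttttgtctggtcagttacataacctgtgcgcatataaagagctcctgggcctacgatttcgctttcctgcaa
Agxt2: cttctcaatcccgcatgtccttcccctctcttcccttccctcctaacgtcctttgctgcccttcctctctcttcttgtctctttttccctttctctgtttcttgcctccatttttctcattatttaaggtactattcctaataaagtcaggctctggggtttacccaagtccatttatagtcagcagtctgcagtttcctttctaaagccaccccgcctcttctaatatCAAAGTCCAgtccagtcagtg
Fah: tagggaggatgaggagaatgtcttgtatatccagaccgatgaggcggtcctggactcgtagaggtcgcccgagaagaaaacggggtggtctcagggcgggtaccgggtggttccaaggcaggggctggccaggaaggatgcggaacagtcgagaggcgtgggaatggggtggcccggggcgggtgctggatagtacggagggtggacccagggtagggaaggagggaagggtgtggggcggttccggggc
Over 32851 such windows in the mouse genome, AGGTCA stood in 14% and CAAAGTCCA in 0.384%. Of the 12 windows of the 9 genes, 5 held AGGTCA, 1 in each of Gatm, Miox, Hgd, Dao and Agxt2; the windows of genes with several starts overlap in part, and Agxt2 held it in the window of its other start, not shown. CAAAGTCCA stood in the windows of both Agxt2 starts, as the same bases where these windows overlap, and in no other of the 12. Of 25 marker genes of the proximal tubule with such windows, 4 held AGGTCA and 1 held CAAAGTCCA. Whether the members hold more matches than other genes was not tested. These matches are descriptions of letters and do not show that a factor binds there.

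The 9 genes were lower in NTS kidney than in control kidney by very unequal amounts, Hpd and Gatm the most. In NTS/PGE2 kidney they lay between -0.30 and 0.01 of control on the log2 scale, and Prodh alone stood there at about its NTS value. Values are the authors' log2 signals, so a difference of 1 is 2-fold, and levels of different genes are not compared because each probe set responds differently. A difference was counted when it reached 2-fold and the higher value lay at or above the median of its array. All 9 genes passed that filter in every comparison, and none lay below the 25th percentile of any array.

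**Figure D1:**
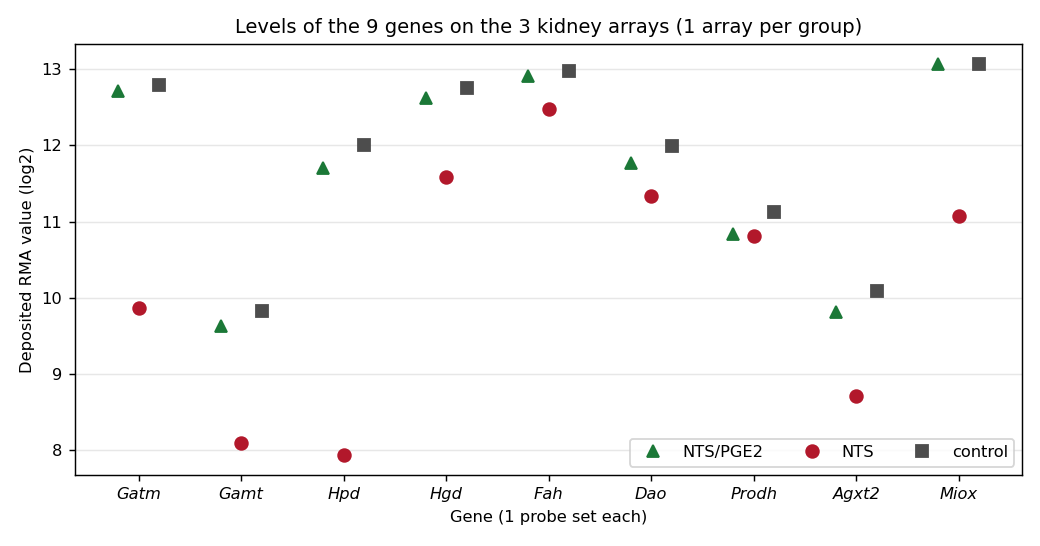
Deposited log2 value of each of the 9 genes (x axis) in NTS/PGE2 kidney (triangles), NTS kidney (circles) and control kidney (squares); each symbol is 1 array, and heights of different genes are not comparable. For Hpd the circle stands at 7.94 under a triangle at 11.70 and a square at 12.00, while for Prodh the 3 symbols lie between 10.81 and 11.13.

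Gatm read 12.71 in NTS/PGE2 kidney, 9.87 in NTS kidney and 12.79 in control kidney. It was thus lower by a log2 difference of -2.93 in NTS kidney than in control kidney, at 13.2% of the control signal, and its NTS/PGE2 value was 7.17-fold above the NTS value. Gamt, which acts on the product of Gatm, read 9.62 in NTS/PGE2 kidney, 8.10 in NTS kidney and 9.83 in control kidney. Its NTS minus control difference was -1.74, at 30.0% of the control signal. Both creatine enzymes were low in NTS kidney alone. Against control, the NTS/PGE2 array differed by -0.08 for Gatm and by -0.21 for Gamt.

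Hpd, the dioxygenase that makes homogentisate, read 11.70 in NTS/PGE2 kidney, 7.94 in NTS kidney and 12.00 in control kidney. Its NTS signal was 5.96% of control, a log2 difference of -4.07 that placed it 8th from the lowest among 11778 genes. Hpd in NTS kidney lay at percentile 62.9 of all probe sets. Hgd, the dioxygenase of the next step, read 12.62 in NTS/PGE2 kidney, 11.59 in NTS kidney and 12.75 in control kidney. Fah, the hydrolase of the last step, read 12.92 in NTS/PGE2 kidney, 12.47 in NTS kidney and 12.98 in control kidney. The NTS minus control difference was thus -4.07 for Hpd, -1.16 for Hgd and -0.50 for Fah. Gstz1, the isomerase that acts between Hgd and Fah and is no member, differed by -0.39. That is too near the value of Fah for an order between Gstz1 and Fah to be read.

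The 3 enzymes of other amino acids differed less than Hpd and Gatm. Agxt2, a mitochondrial aminotransferase that also handles asymmetric dimethylarginine and beta-aminoisobutyrate, read 9.82 in NTS/PGE2 kidney, 8.71 in NTS kidney and 10.09 in control kidney, with an NTS minus control difference of -1.37. Dao, the peroxisomal oxidase of D-amino acids, read 11.77 in NTS/PGE2 kidney, 11.34 in NTS kidney and 11.99 in control kidney. Its NTS minus control difference of -0.66 fell short of 2-fold, and it was the first gene outside that size, with Hgd at -1.16 the last inside it. Prodh, the mitochondrial enzyme that begins proline oxidation, read 10.83 in NTS/PGE2 kidney, 10.81 in NTS kidney and 11.13 in control kidney. Prodh was the one gene of the 9 with nearly the same value on both arrays of serum-treated kidney, 0.02 apart, with differences from control of -0.30 for NTS/PGE2 and -0.32 for NTS.

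Miox, the oxygenase that turns myo-inositol into glucuronate and that is found mainly in the proximal tubule, read 13.07 in NTS/PGE2 kidney, 11.07 in NTS kidney and 13.07 in control kidney. The NTS signal was 25.1% of control, a log2 difference of -1.99. In NTS/PGE2 kidney Miox lay 0.01 above control, about at the control level. It was the only member with a positive difference there in the deposited values. With each array centred on its median the Miox difference was -0.02.

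**Figure D2:**
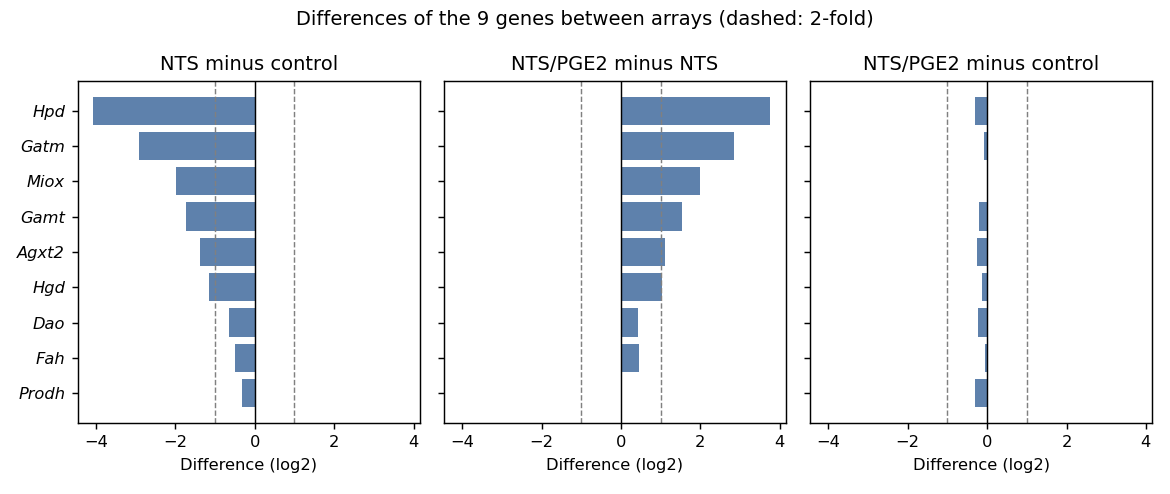
Log2 differences of the 9 genes (rows, ordered by the first panel) for NTS minus control, NTS/PGE2 minus NTS and NTS/PGE2 minus control; bars start at 0 and dashed lines mark 2-fold. The first panel runs between -4.07 for Hpd and -0.32 for Prodh, the second between 0.02 for Prodh and 3.76 for Hpd, and in the third every bar lies between -0.30 and 0.01.

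In NTS against control, 6 of the 9 genes (Hpd, Gatm, Miox, Gamt, Agxt2 and Hgd) were at least 2-fold lower and 0 at least 2-fold higher, beside 5.42% of the 11778 genes that passed the filter lower and 2.7% higher. In NTS/PGE2 against NTS the same 6 genes were at least 2-fold higher and 0 lower, beside 4.15% higher and 3.28% lower of 11699 genes. In NTS/PGE2 against control 0 of the 9 differed 2-fold, beside 0.659% lower and 0.0607% higher of 11534 genes. These comparisons chose the members, so the counts describe them and carry no further weight. The members' median log2 difference was -1.37 for NTS minus control, 1.11 for NTS/PGE2 minus NTS and -0.21 for NTS/PGE2 minus control, and the median of all passing genes was 0 in each. The 3 comparisons share arrays pairwise, so a single low or high reading in NTS kidney enters both of the first 2. In whole kidney, fewer cells of a type and less RNA per cell cannot be told apart.

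How far the order of the 9 genes can be read was judged from 465 genes with 2 bright probe sets. Their 2 NTS minus control differences lay apart with an SD of 0.27, a spread that leaves out animals. These genes were not chosen for large differences, so the SD may be too small for genes such as Hpd and Gatm. The gaps between Hpd and Gatm, 1.14, and between Gatm and Miox, 0.93, were larger than that SD. Those from Gamt to Agxt2, 0.36, and from Hgd to Dao, 0.50, were larger too. Passing a single SD is a low bar, so no firm order is read from these smaller gaps. The gap from Miox to Gamt was 0.26 and that from Agxt2 to Hgd 0.21, both within the SD. Dao, Fah and Prodh, at -0.66, -0.50 and -0.32, each lay within it of the next. For NTS/PGE2 minus control the SD was 0.17 and the largest gap between neighbours was 0.08, so no order is given.

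Markers of the proximal tubule, where most of these enzymes are made, were lower too. Medians of gene lists are over all measured genes, dim ones included, unless the genes that passed the filter are named. Of 30 measured marker genes, none of them a member, 19 were at least 2-fold lower and 0 higher in NTS kidney, with a median of -1.21 and 29 of 30 below control. The largest differences were in Slc22a7, an organic anion transporter, at -3.31, in the meprin subunit gene Mep1b at -2.90, in the organic anion transporter Slc22a8 at -2.31 and in Cyp2e1 at -2.20. Mean log2 levels of the list were 11.90 in NTS/PGE2 kidney, 10.61 in NTS kidney and 11.89 in control kidney. Relative to the marker median of -1.21, Hpd lay at -2.86 and Gatm at -1.72 on the log2 scale. Miox lay at -0.79, Gamt at -0.53, Agxt2 at -0.17 and Hgd at 0.05 from it. Dao at 0.55, Fah at 0.70 and Prodh at 0.89 lay above the marker median. Hpd was lower than all 30 markers and Gatm lower than all but 1, whereas 26 of the 30 were lower than Prodh. The part that the number of proximal tubule cells had in these differences was not tested.

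In NTS/PGE2 against NTS, 20 of the 30 markers were at least 2-fold higher and 0 lower, with a median of 1.32. In NTS/PGE2 against control the marker median was 0.06, and the members lay between -0.37 for Hpd and -0.06 for Miox relative to it, so all 9 were below the marker median. The markers ranged more widely than the members there, with Mep1b at 0.86, Cyp2e1 at -0.72 and Acsm3, named after its values were seen, at -2.04, the 1 marker that was at least 2-fold lower. Hpd, the lowest member, had 4 of the 30 markers below it.

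Injury markers were higher. Of 19 measured genes of injured tubules, 13 were at least 2-fold higher in NTS kidney than in control kidney and 0 lower, with a median of 1.35, and Havcr1 (Kim-1), a receptor shed by injured proximal tubule, read 7.50 in NTS/PGE2 kidney, 12.63 in NTS kidney and 6.77 in control kidney. Krt20, a keratin, differed by 4.45, the cornified envelope gene Sprr2f by 3.73 and the metalloproteinase inhibitor gene Timp1 by 3.29. In NTS/PGE2 against NTS 16 of the 19 were at least 2-fold lower and 0 higher, with a median of -2.05. The other nephron segments and the vessels were lower as well in NTS kidney, with medians of -1.17 over 12 loop and distal tubule genes, -0.76 over 12 collecting duct genes and -1.50 over 10 endothelium genes. For NTS/PGE2 minus NTS these 3 medians were 1.19, 0.71 and 1.26, with 7, 5 and 7 genes at least 2-fold higher and 0 lower. For NTS/PGE2 minus control they were 0.16, -0.06 and -0.21, so a value near control was not particular to the members or the proximal tubule. Of 11 measured immune cell genes 2 were at least 2-fold higher in NTS kidney, the macrophage gene Cd68 at 2.23 and the integrin gene Itgam at 1.10, and 2 at least 2-fold lower, the lysozyme gene Lyz2 at -1.19 and the receptor gene Csf1r at -1.09. The list's median was 0 over all 11 and -0.17 over the 7 that passed the filter.

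Transcription factors of the proximal tubule differed little beside the enzymes. Of 9 measured factors 0 were 2-fold different in any comparison. Hnf4a, a nuclear receptor that drives proximal tubule genes, read 12.29 in NTS/PGE2 kidney, 11.55 in NTS kidney and 12.12 in control kidney, an NTS minus control difference of -0.57. Pax8, a nephron factor, differed by 0.59 and Nr1h4, the bile acid receptor, by 0.44, both higher in NTS kidney.

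Since Hpd, Hgd, Fah and Gamt are abundant in liver and the control array carried fat transcripts, other tissues were looked at. Of 14 liver genes 1 was at least 2-fold lower in NTS kidney, Alb at -2.29, and the list's median was -0.01 over all 14 and -0.02 over the 7 that passed the filter. Between NTS/PGE2 and NTS kidney 2 of them were at least 2-fold higher in NTS/PGE2 and 0 lower, Alb at 2.94 and Ahsg at 1.28, both genes of secreted plasma proteins, with a median of 0.03 over all 14 and 0.34 over the 8 that passed. Alb read 10.51 in NTS/PGE2 kidney, 7.57 in NTS kidney and 9.86 in control kidney, so it was low in NTS kidney alone, as were the 6 members counted above. Mean log2 levels of the liver list were 7.66 in NTS/PGE2 kidney, 7.25 in NTS kidney and 7.51 in control kidney. The list's urea cycle gene Otc read 4.11 on all 3 arrays, below the 25th percentile of each. Cps1, also of the urea cycle, read 6.41 in NTS/PGE2 kidney, 6.22 in NTS kidney and 6.34 in control kidney. Arg1, of the same cycle, read 5.98, 5.98 and 5.91 on these arrays. Cps1 and Arg1 lay above the 25th percentile and below the median of each array. Otc, Cps1 and Arg1 were named after their values were seen. Other liver genes were lower in NTS kidney than in control kidney, Apoa2 by -0.64, Ahsg, which did not pass the filter there, by -0.61 and Apoa1 by -0.42. Their NTS/PGE2 minus NTS differences were 0.64, 1.28 and 0.89. Of the 14 liver genes 7 were below control in NTS kidney, 4 above and 3 equal. The part of liver transcripts in the members' differences was not tested. Of 10 adipose genes 8 were at least 2-fold lower in NTS kidney than in control kidney, with a median of -2.94 over all 10 and -3.02 over the 9 that passed the filter, and 7 were at least 2-fold lower in NTS/PGE2 kidney than in control kidney, with a median of -3.02 over all 10 and -4.06 over the 9 that passed. The part of fat transcripts in the members' differences was not tested.

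**Figure D3:**
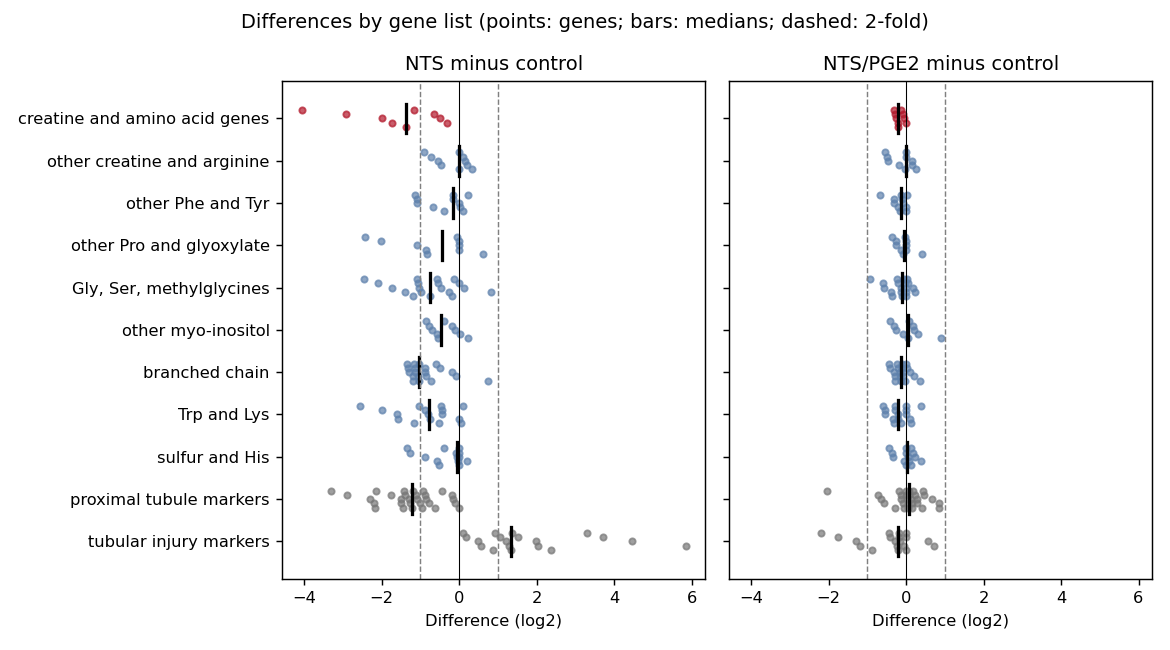
Log2 differences of single genes (points) by list (rows) for NTS minus control and NTS/PGE2 minus control, with medians over all measured genes of a list as black bars and 2-fold as dashed lines; the 9 members are in the top row, other breakdown lists in the rows under it and marker lists at the bottom. In the NTS panel the members' median is -1.37, branched chain genes lie at -1.04 and injury markers at 1.35; in the NTS/PGE2 panel all breakdown lists have medians between -0.21 and 0.06.

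The wider set of enzymes and transporters around the 9 genes comprised 8 lists with 110 measured genes, no member among them, of which 98 passed the filter in NTS against control. In NTS kidney 33 of these were at least 2-fold lower than control and 0 at least 2-fold higher; the median was -0.72 over the 98 and -0.56 over all 110, beside 5.42% lower, 2.7% higher and a median of 0 over all genes that passed. In NTS/PGE2 against NTS 23 of 98 were at least 2-fold higher and 1 lower, beside 4.15% and 3.28% of all genes, and in NTS/PGE2 against control 0 of 98 differed in either direction, with a median of -0.11 over the 98 and -0.08 over all 110. The gene lower in NTS/PGE2 than in NTS kidney was Psat1, an enzyme of serine synthesis, named after its values were seen, which read 8.23 in NTS/PGE2 kidney, 9.63 in NTS kidney and 8.80 in control kidney. The 8 lists were chosen with earlier results of these arrays known, so their counts are descriptions only.

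Around creatine synthesis no gene reached 2-fold. Of 10 measured genes of creatine transport, creatine kinases and arginine use, 0 were 2-fold different in any comparison, and the median for NTS minus control was 0 over all 10 and -0.23 over the 8 that passed the filter. Slc16a12, which lets creatine out of cells, differed by -0.91, the brain-type creatine kinase gene Ckb by -0.74, ornithine aminotransferase (Oat) by -0.54 and argininosuccinate lyase (Asl) by -0.46. Slc6a8, the creatine uptake transporter, read 10.73 in NTS/PGE2 kidney, 11.24 in NTS kidney and 10.91 in control kidney, with an NTS minus control difference of 0.33 in the direction opposite to Gatm and Gamt.

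Of 11 other measured genes in the phenylalanine and tyrosine list, 3 were at least 2-fold lower in NTS kidney. They were Fahd1 at -1.13, Pcbd1, which recycles the biopterin cofactor, at -1.08 and the monoamine oxidase gene Maob at -1.08. Fahd1 is an acylpyruvase of the FAH fold family and no enzyme of tyrosine breakdown. The median was -0.17 over all 11 and -0.28 over the 10 that passed the filter. Qdpr, the biopterin reductase, differed by -0.68. Gstz1, the isomerase between Hgd and Fah in the route and named for that place after its values were seen, read 10.68 in NTS/PGE2 kidney, 10.51 in NTS kidney and 10.90 in control kidney. Its difference of -0.39 lay near the -0.50 of Fah, the step after it, so no order between them is given. Tat, the liver aminotransferase that feeds the route, did not reach the median of any array.

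In proline, hydroxyproline and glyoxylate breakdown, 3 of 10 measured genes were at least 2-fold lower in NTS kidney, with a median of -0.44 over all 10 and -0.84 over the 8 that passed the filter. Hao2, a peroxisomal hydroxy acid oxidase, differed by -2.43, Prodh2, which oxidises hydroxyproline, by -2.01 and the glyoxylate reductase gene Grhpr by -1.08. Prodh2 read 9.82 in NTS/PGE2 kidney, 8.08 in NTS kidney and 10.09 in control kidney. The hydroxyproline enzyme was thus more than 2-fold lower where Prodh, its proline counterpart, did not reach 2-fold. Aldh4a1, which serves both routes, differed by -0.86. Hoga1, the aldolase that makes glyoxylate in the hydroxyproline route, was higher in NTS kidney by 0.62 and was singled out after its values were seen.

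**Figure D4:**
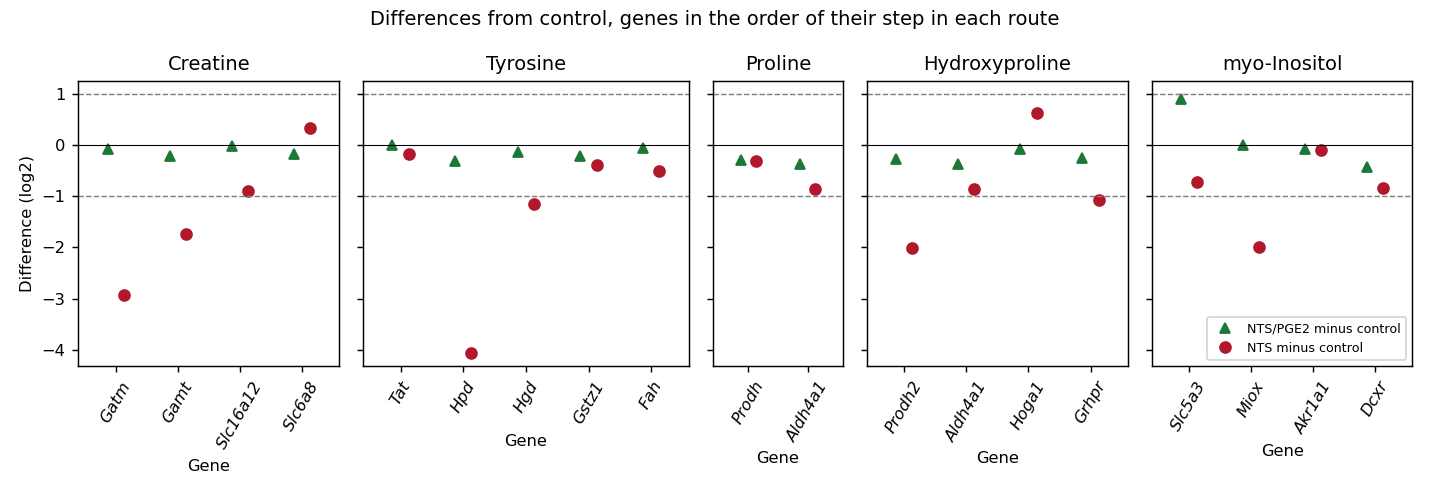
Log2 differences from control for NTS/PGE2 (triangles) and NTS (circles), with genes in the order of their step in 5 routes; dashed lines mark 2-fold, and the genes shown beside the members were picked for their place in the route after values were seen. Hpd at -4.07 and Gatm at -2.93 are the lowest circles, Hoga1 at 0.62 and Slc6a8 at 0.33 lie above 0, and the highest triangle is Slc5a3 at 0.90.

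The myo-inositol list showed Miox apart from its neighbours. Of 10 measured genes 0 were 2-fold different between NTS and control, with a median of -0.47 over all 10 and -0.56 over the 8 that passed the filter. Dcxr, the xylulose reductase further along the glucuronate route, differed by -0.85, the gulonate dehydrogenase gene Cryl1 by -0.79 and the inositol transporter Slc5a11 by -0.58. The inositol transporter Slc5a3, which is known to respond to tonicity, read 12.21 in NTS/PGE2 kidney, 10.60 in NTS kidney and 11.31 in control kidney. It was the gene of this list at least 2-fold higher in NTS/PGE2 against NTS, at 1.62, and it stood 0.90 above control in NTS/PGE2 kidney, where Miox lay at 0.01.

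Branched chain amino acid breakdown was lower nearly throughout. Of 20 measured genes 11 were at least 2-fold lower in NTS kidney, 19 were below control, and the median was -1.04. Abat, the transaminase of gamma-aminobutyrate, differed by -1.35, the methylmalonyl-CoA mutase gene Mmut by -1.32, the acyl-CoA dehydrogenase gene Acadsb by -1.29 and the hydratase gene Auh by -1.20. The branched chain transaminase genes, named after their values were seen, went opposite ways, Bcat2 at -1.05 and Bcat1 at 0.74. Bcat1 was the gene of the list above control. In NTS/PGE2 against NTS 7 of the 20 were at least 2-fold higher. Glycine, serine and methylglycine genes had 8 of 19 at least 2-fold lower in NTS kidney, with a median of -0.76. These included the betaine methyltransferases Bhmt at -2.45 and Bhmt2 at -2.11, which are close copies whose values may mix, the dimethylglycine dehydrogenase gene Dmgdh at -1.74 and Amt, of the glycine cleavage system, at -1.40.

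Tryptophan and lysine breakdown had 6 of 16 measured genes at least 2-fold lower in NTS kidney, with a median of -0.78 over all 16 and -0.84 over the 14 that passed the filter. Aadat, an aminotransferase of kynurenine and aminoadipate, read 13.37 in NTS/PGE2 kidney, 10.69 in NTS kidney and 13.25 in control kidney. It differed by -2.56 between NTS and control, and the kynurenine pathway genes Haao, Kynu and Kmo by -1.99, -1.61 and -1.57. Sulfur and histidine breakdown had 2 of 14 measured genes at least 2-fold lower in NTS kidney and 9 below control, with a median of -0.06 over all 14 and -0.40 over the 11 that passed the filter. The genes past 2-fold were the sulfite oxidase gene Suox at -1.34 and cystathionine lyase (Cth) at -1.26. The taurine enzyme gene Csad differed by -0.87 and Cbs by -0.56.

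Genes with the most similar pattern were sought by the distance over the 2 log2 differences from control, NTS minus control and NTS/PGE2 minus control, among 11313 other genes. Nearest to Gatm were Cyp2j11 at a distance of 0.02, Clec2h at 0.03 and Eci3 at 0.12. Nearest to Hpd were Dnase1 at 0.23, Cyp2d26 at 0.33 and Cyp2d12 at 0.46, and the Cyp2d genes are near copies of one another. Miox had Slfn5 at 0.07, Rasgrp3 at 0.10 and Stxbp4 at 0.11 as its nearest. For Dao the nearest were Ndufaf1 at 0.003, Cyc1 at 0.01 and Mettl15 at 0.01, in a range of small differences where many genes lie. With 3 arrays, any such likeness rests on 2 differences.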

How the data were processed

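Kidney RNA was measured on 3 arrays, 1 per group, grouped by their labels. The deposited values are log2 signals that the authors made by RMA in Affymetrix Expression Console (submitters' processing notes, per the labels); version and build not given in the sources used here. The RMA method equalises the distributions of the arrays and reduces each probe set to a value by median polish, which can shrink small differences and gave exactly equal values on all 3 arrays in 25.4% of 35556 probe sets. No scanner values were analysed, so signal over background is unknown.

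The platform annotation gave 1 gene symbol for 21789 probe sets, several for 1621 and left 12146 unnamed here; 21698 of the first kind matched a gene identifier of GRCm38.p6, which altered 0 symbols. Probe sets of a gene were averaged, giving 19938 genes. Differences were plain subtractions, counted at 2-fold when the higher value reached the median of its array; the calculation was tested on simulated data. Python 3.11.15, numpy 2.4.6, pandas 2.3.3 and matplotlib 3.10.9 were used. The members and gene lists were chosen with earlier results of these data known. Named genes were the 9 members, up to 4 genes of a list with the largest NTS minus control difference, the 3 nearest patterns for Gatm, Hpd, Dao and Miox, and a few fixed genes; others are marked in the text. Listed genes without a single-symbol probe set were not analysed here. Promoter windows and their coordinates come from RefSeq on GRCm38.p6 and were found for all 9 members.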

Additional observations from a re-analysis of the deposited data

How the results depend on the processing

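The 6 alternatives were a filter at the 25th percentile, no filter, the brightest probe set of a gene, probe sets with several symbols given to each gene, arrays centred on their medians, and a size rule of 1.5-fold. All 36 member counts stayed within 1.5 times of those reported, and neither a member's log2 difference nor the members' median moved by more than 0.0289. Looser filters could not alter the members, which all passed the stricter one, nor could the brightest probe set, as each has 1. Sharing out probe sets with several symbols moved no member value, and centring moves all genes of a comparison alike. This stability was thus largely fixed beforehand and says little about the members. Medians of the other lists were not recomputed under the alternatives. Centring turned the NTS/PGE2 minus NTS difference of Prodh to -0.01 and the NTS/PGE2 minus control difference of Miox to -0.02. The 1.5-fold rule added Dao to the genes lower in NTS kidney, for 7 of 9. Over all genes it gave 1406 lower and 898 higher for NTS against control, 1045 lower and 1167 higher for NTS/PGE2 against NTS, and 248 lower and 64 higher for NTS/PGE2 against control. Precision is limited by the number of arrays. No paired analysis was possible because each group has 1 array.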
